A study of Mus musculus with 31 samples.

Results

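T cell receptor signalling genes were followed in all 3 count tables of a study of mouse Th17 cells. The 40 members were taken by name from 31053 gene symbols, and each of them was found in every table. By role they were 4 receptor chains, 4 surface co-receptors, 6 kinases or activating phosphatases, 10 adaptors, 7 effector enzymes or factors and 9 negative regulators. The list was made by name and not by a threshold on measured values, but with earlier results of these data known.

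The T cell receptor has no catalytic activity of its own. Its CD3 and zeta chains carry tyrosine motifs that the kinase Lck phosphorylates, and the kinase Zap70 binds there and phosphorylates the adaptors Lat and Lcp2. Those adaptors hold phospholipase, nucleotide exchange and cytoskeletal proteins together, which opens calcium, Ras and NF-kappaB signalling, while phosphatases, diacylglycerol kinases and ubiquitin ligases damp the signal. In Th17 cells, which make interleukin 17, this signal drives activation and cytokine production.

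In the culture experiment, Th17Inf cells were made in vitro from WT (C57/B6) spleen and draining lymph node cells. They were kept for 2 days with dexamethasone (Dex, a synthetic glucocorticoid), with the cytokine TGF-β1, with both (TGF-β1+Dex) or as controls, with 3 libraries in each group. In the other experiments, naive T cells bearing the transgenic 2D2 receptor, which recognises a myelin protein, were turned into Th17Hom cells and transferred into Rag1 KO mice, which lack T and B cells of their own but keep myeloid cells. The recipients developed EAE, an autoimmune inflammation of the CNS, and 2D2+ cells were sorted from the CNS at the peak of disease. The donors were Cyp11a1 cKO (6 libraries) or Cyp11a1 WT (4 libraries), and GR cKO (4 libraries) or GR WT (5 libraries), all on C57/B6. Cyp11a1 encodes the enzyme that starts steroid synthesis, and GR is the glucocorticoid receptor, encoded by Nr3c1. The Cre driver is not given in the sources used here. Each library held RNA of 2000 sorted cells. The labels do not say whether libraries came from separate animals or cultures, so p-values measure the spread among libraries.

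Libraries held 2769203 to 4291149 counts in vitro, 4322688 to 5118543 in the Cyp11a1 experiment and 3552871 to 5623305 in the GR experiment. Levels are given as CPM, counts relative to library size with TMM scaling, and the tables were scaled separately. A count of 3 in a library corresponded to 0.495 to 1.13 CPM over all libraries, which is the limit of detection from counting error alone. The summed T cell receptor constant segments were 1131 to 1471 CPM in vitro, 30867 to 36339 CPM in the Cyp11a1 experiment and 14241 to 19081 CPM in the GR experiment, so T cell RNA was found in every library. Summed myeloid markers were 279 to 376 CPM in vitro, where Csf1r was at 0 in every library. They were 997 to 1901 CPM in the Cyp11a1 experiment. In the GR experiment they reached 14058 to 27426 CPM in cKO libraries and 7435 to 27789 CPM in WT libraries. GR WT replicate 5 had the highest myeloid sum and was the lowest of the 9 libraries in 16 of the 40 members, so GR results are also given without it. As a check of the labels, Nr3c1 had 6.76 to 10.2 CPM in GR cKO libraries (27 to 53 counts) and 13.0 to 18.8 CPM in GR WT libraries (43 to 104 counts), which did not overlap in CPM. The difference was −0.83 ± 0.18 (SE) on the log2 scale (edgeR adjusted p = 0.58). For Cyp11a1, 5 of 6 cKO libraries held 0 counts and the other held 4, and all 4 WT libraries held 0, so its own counts could not check those labels.

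Of the 40 members, 14 passed the test in at least 1 of 5 comparisons of treated cultures, against 8.09% of all 10332 genes tested there in either direction. The other 26 include Txk, which was not tested there. The members were chosen with earlier results of these data known, so this contrast is a description and not a test. No member passed in either comparison of CNS cells. Adaptors made up 6 of the 14. Lat, the membrane scaffold that Zap70 phosphorylates, fell with Dex and rose with TGF-β1, and with both agents its level was close to that of controls. Trat1, a transmembrane adaptor that binds the zeta chain, was the one member past the test that changed by 2-fold or more, and it fell with TGF-β1. Malt1 and Plcg1, both effectors, rose with TGF-β1. The RNA of Lck, Zap70 and 3 of the 4 receptor chains, Cd3d, Cd3e and Cd3g, did not pass in any comparison. In bulk samples such as these, fewer cells of a type and less RNA per cell cannot be told apart.

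To compare members with one another, CPM was divided by the median coding-transcript length in GENCODE M21. Which transcripts were expressed was not determined, so this order is approximate. In control cultures the highest level was that of Cd2, an adhesion receptor, at 349.8 ± 16.6 CPM per kb (SD, n = 3). Cd3g, a CD3 chain, followed at 268 ± 17.9 CPM per kb, and Lck at 187 ± 9.17 CPM per kb. Lat had 172 ± 3.87 CPM per kb and Cd3e had 165 ± 14.7 CPM per kb, so Lat and Cd3e did not differ beyond their spread. The lowest were Txk, a Tec-family kinase, at 0.501 ± 0.226 CPM per kb and Pag1, a membrane anchor for the inhibitory kinase Csk, at 0.436 ± 0.135 CPM per kb, which did not differ beyond their spread either. Txk fell below the filter on low counts in vitro, where its libraries held 0.545 to 3.15 CPM, so 39 members were tested there and all 40 in CNS cells.

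**Figure D1:**
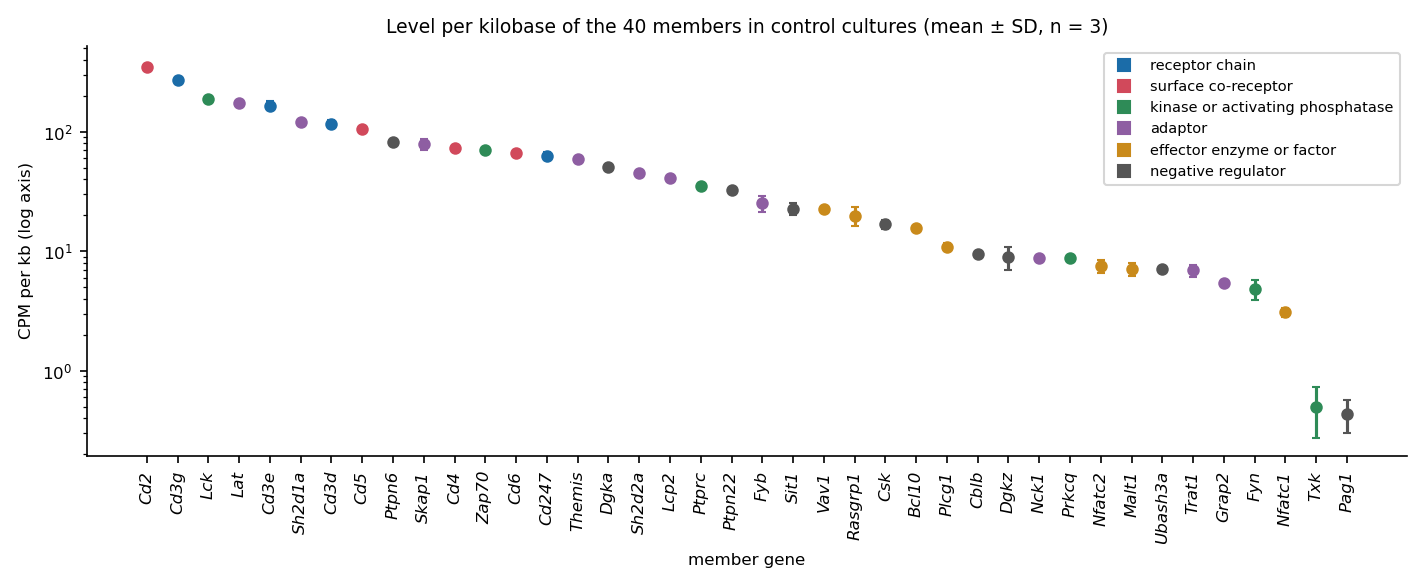
Level per kilobase in control cultures of each of the 40 members, as CPM per kb on a log axis; points are means and bars SD over 3 libraries, coloured by role. Cd2 is highest at 349.8 CPM per kb and Pag1 lowest at 0.436 CPM per kb.

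The promoters of 4 members whose calls held under all alternatives run in at least 1 comparison are shown, from 250 bases before to 50 bases after the start of transcription, 5′ to 3′ on the gene's strand (RefSeq, GRCm38.p6). Ptprc and Plcg1 also met this rule and are described below without sequences, while Malt1 and Cd2 met it but had no promoter entry. Capitals mark the glucocorticoid receptor half-site AGAACA, the Smad element CAGACA, the Ets core GGAAGT, the Runx site TGTGGT and the AP-1 site TGANTCA, on either strand.
Lat, chr7:126369519-126369818, minus strand: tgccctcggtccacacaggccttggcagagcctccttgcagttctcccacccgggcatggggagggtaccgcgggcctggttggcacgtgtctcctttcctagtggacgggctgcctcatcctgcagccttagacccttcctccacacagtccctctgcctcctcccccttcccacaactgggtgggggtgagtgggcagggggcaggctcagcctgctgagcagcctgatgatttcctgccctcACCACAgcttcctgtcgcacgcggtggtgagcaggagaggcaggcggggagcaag
Lcp2, chr11:34046678-34046977, plus strand: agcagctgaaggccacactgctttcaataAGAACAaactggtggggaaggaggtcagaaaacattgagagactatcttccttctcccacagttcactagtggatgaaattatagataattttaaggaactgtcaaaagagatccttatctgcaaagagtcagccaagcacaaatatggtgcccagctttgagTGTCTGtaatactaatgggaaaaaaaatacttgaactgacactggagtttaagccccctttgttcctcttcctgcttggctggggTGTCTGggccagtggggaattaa
Trat1, chr16:48772013-48772312, minus strand: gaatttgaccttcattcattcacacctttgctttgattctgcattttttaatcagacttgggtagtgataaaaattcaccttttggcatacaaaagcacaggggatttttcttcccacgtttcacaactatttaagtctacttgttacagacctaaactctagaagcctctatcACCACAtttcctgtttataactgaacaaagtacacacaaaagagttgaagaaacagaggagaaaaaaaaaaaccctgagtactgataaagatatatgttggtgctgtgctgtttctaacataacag
Cd5, chr19:10738925-10739224, minus strand: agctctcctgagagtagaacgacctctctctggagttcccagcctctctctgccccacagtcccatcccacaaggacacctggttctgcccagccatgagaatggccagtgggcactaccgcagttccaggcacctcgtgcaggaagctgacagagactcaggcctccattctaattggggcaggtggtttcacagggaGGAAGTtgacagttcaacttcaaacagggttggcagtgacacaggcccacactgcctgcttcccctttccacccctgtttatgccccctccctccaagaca
The Lat window held a Runx site 5 bases before the start, and the Trat1 window held one 76 bases before it. Lcp2 had a glucocorticoid receptor half-site 221 bases before the start and a pair of Smad elements, and Cd5 had an Ets core 51 bases before it. Each Ptprc window held a glucocorticoid receptor half-site, at least 1 Ets core and no Smad element. The Plcg1 window held a Smad element 158 bases before the start. Such short motifs are frequent. Over the 45 windows of the 31 members that matched the table, the half-site was in 28.9%, against 19.0% of all 32851 windows, and the Smad element was in 24.4%, against 21.0% of all windows. The Ets core was in 42.2% of member windows and 23.8% of all windows, and the Runx site in 13.3% of member windows and 16.8% of all. The AP-1 site was in 0 member windows and 7.81% of all windows. The full palindromic receptor element was in 0 member windows and in 3 of all windows. The NFAT core GGAAAA, not marked in capitals, was in 15.6% of member windows and 23.4% of all. Median GC content was 57.3% in member windows and 52.7% in all windows, and its part in these shares was not tested. A match is a description of letters and not a binding site. Pag1, Skap1, Sh2d1a, Nfatc1, Sh2d2a, Cd6, Malt1, Cd4 and Cd2 had no entry in the table.

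The first question in culture is what the glucocorticoid alone does. With Dex, 2 of 39 members rose and 4 fell relative to controls at an edgeR adjusted p below 0.05, over 10332 genes tested, of which 0.919% rose and 0.91% fell. The median log2 fold change of members was −0.04, and that of all genes was 0.00. Log2 fold changes below are given ± SE. The 4 that fell were the adaptors Lat, Lcp2 and Sh2d2a and the co-receptor Cd5, while the phosphatase gene Ptpn22 and the adhesion gene Cd2 rose. With TGF-β1 alone, 4 members rose and 5 fell relative to controls, against 1.93% and 1.36% of all genes. Lat, Cd6, Malt1 and Plcg1 rose, and Trat1, Ptprc, Fyb, Lcp2 and Skap1 fell. Leaving out any 1 of the 6 libraries compared left 3 to 4 members called with Dex. With TGF-β1, 3 to 6 were left, with 3 to 5 without control replicate 1 or 2 or TGF-β1 replicate 1 or 2.

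With both agents, 4 members rose and 7 fell relative to controls, against 3.12% and 3.14% of all genes. Malt1, Plcg1, Cd2 and Ptpn22 rose, and Trat1, Lcp2, Ptprc, Cd247, Skap1, Fyb and Sh2d2a fell. Relative to TGF-β1 alone, the combination lowered 1 member, Lat, and raised 0, against 0.223% of all genes lower and 0.31% higher. In either direction, 10 of 39 members and 1018 of all genes had an unadjusted p below 0.05. DESeq2 called 3 members there, Cd5, Cd6 and Lat. Relative to Dex alone, 3 members rose (Lat, Plcg1 and Cd5) and 2 fell (Ptprc and Trat1), against 1.46% and 1.16% of all genes. Leaving out 1 library left 7 to 8 members called with both agents against controls, 7 of them without control replicate 1 or TGF-β1+Dex replicate 3, and 2 to 3 with both against Dex alone. These comparisons share libraries and are not independent of one another.

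**Figure D2:**
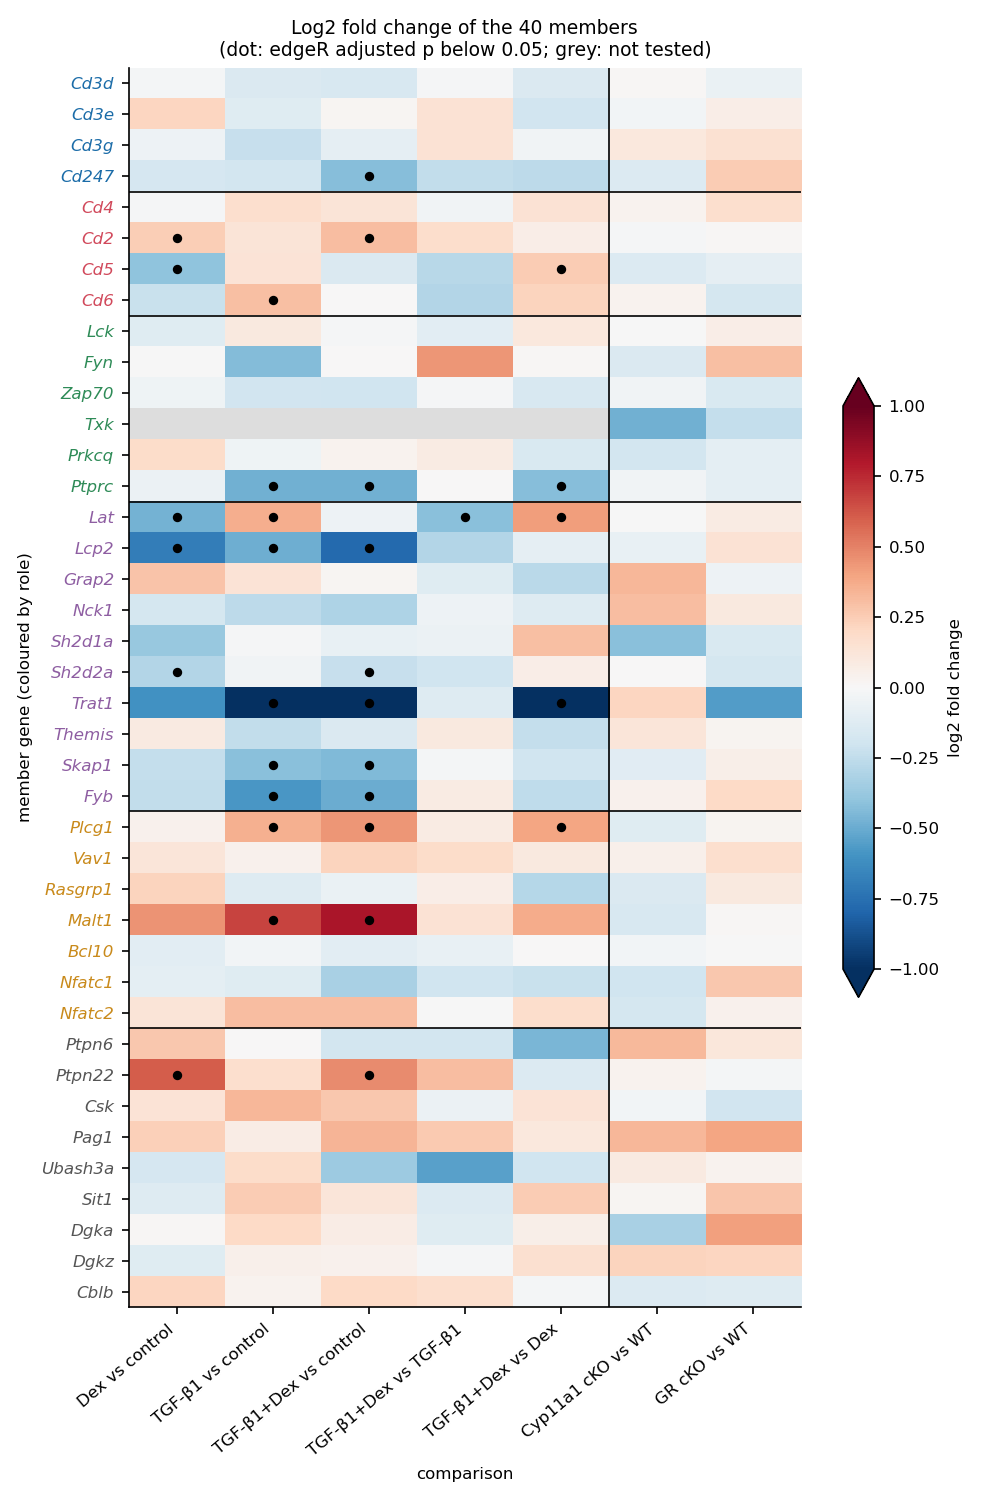
Log2 fold change of each member (rows, by role) in each comparison (columns), first group over second; a dot marks an edgeR adjusted p below 0.05 and grey marks Txk, which was not tested in vitro. The colour scale stops short of 3 Trat1 values, the lowest of them −2.05, and no dot stands in the 2 CNS columns.

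Among the receptor chains, Cd247 encodes the zeta chain, which carries most of the signalling motifs. Its levels were 120.0, 123 and 139 CPM in Dex cultures, 121, 136 and 121 CPM in TGF-β1 cultures and 98.6, 107 and 112 CPM in TGF-β1+Dex cultures, against 153, 143 and 132 CPM in control cultures. The TGF-β1+Dex libraries were all below the control libraries, and Cd247 fell there (log2 fold change −0.43 ± 0.09, edgeR adjusted p = 0.00932). That call was lost without control replicate 1 or TGF-β1+Dex replicate 1, with an adjusted p of at most 0.0533. With Dex alone the difference was −0.17 ± 0.09, edgeR adjusted p = 0.439, and with TGF-β1 alone it was −0.18 ± 0.09, edgeR adjusted p = 0.35. Exons of Cd247 overlap those of Pou2f1 and Gm16565, and the reads carry no strand. Reads in the bases that Cd247 shares with its antisense neighbour cannot be told apart, and the extent of the overlap was not measured.

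The CD3 chains Cd3d, Cd3e and Cd3g pair with the receptor and bring it to the surface. Cd3d had 182, 186 and 186 CPM in Dex cultures, 162, 189.6 and 153 CPM in TGF-β1 cultures and 178, 160.2 and 163 CPM in TGF-β1+Dex cultures, against 194, 196 and 171 CPM in control cultures. Cd3e had 272, 273 and 297 CPM in Dex cultures, 236, 209.9 and 221 CPM in TGF-β1 cultures and 254, 236 and 244 CPM in TGF-β1+Dex cultures, against 259, 218 and 248 CPM in control cultures. Cd3g had 245, 298 and 251 CPM in Dex cultures, 234, 239 and 231 CPM in TGF-β1 cultures and 274, 254 and 248 CPM in TGF-β1+Dex cultures, against 256, 275 and 292 CPM in control cultures. Dex libraries of Cd3e all lay above the control libraries, but the test was not passed (log2 fold change 0.22 ± 0.07, edgeR adjusted p = 0.189), and TGF-β1 libraries of Cd3g all lay below the controls. Every other treated group overlapped with the controls for these 3 chains. With TGF-β1, differences from controls were −0.15 ± 0.08 for Cd3d, −0.12 ± 0.07 for Cd3e and −0.23 ± 0.08 for Cd3g, with edgeR adjusted p between 0.173 and 0.488. The constant segments of the receptor itself, looked at after their values were seen, gave 1166 to 1269 CPM in Dex cultures, 1234 to 1350 CPM in TGF-β1 cultures and 1131 to 1252 CPM in TGF-β1+Dex cultures, against 1397 to 1471 CPM in control cultures, as the sum of Trac, Trbc1 and Trbc2. Trbc2 fell with Dex (log2 fold change −0.31 ± 0.06, edgeR adjusted p = 0.0311), with TGF-β1 (−0.29 ± 0.06, adjusted p = 0.0276) and with both (−0.45 ± 0.06, adjusted p = 0.000978). Trac and Trbc1 passed in none of these. Trbc1 and Trbc2 are near-identical, so how their reads were divided is uncertain.

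Among the surface co-receptors, Cd5 and Cd6 are scavenger-type receptors that restrain the signal. Cd5 had 205, 193 and 204 CPM in Dex cultures, 284, 286 and 303 CPM in TGF-β1 cultures and 231, 230.2 and 258 CPM in TGF-β1+Dex cultures, against 270.1, 252 and 272 CPM in control cultures. The Dex libraries lay below all others, and Cd5 fell relative to controls (log2 fold change −0.40 ± 0.06, edgeR adjusted p = 0.00584). It was higher with both agents than with Dex alone (0.26 ± 0.06, edgeR adjusted p = 0.0492), but this was lost without any 1 of the 6 libraries, with an adjusted p of up to 0.189, and also under limma, with no filter on low counts and with only these 2 groups fitted. Cd6 had 164, 169.9 and 163 CPM in Dex cultures, 240.3, 234 and 239 CPM in TGF-β1 cultures and 182, 194 and 204 CPM in TGF-β1+Dex cultures, against 179, 199.5 and 199.6 CPM in control cultures. TGF-β1 libraries were the highest, and Cd6 rose relative to controls (0.30 ± 0.06, edgeR adjusted p = 0.017). This was lost without control replicate 1 or TGF-β1 replicate 1 or 3, with an adjusted p of up to 0.058. Cd2 had 486, 486 and 461 CPM in Dex cultures, 445, 429.9 and 451 CPM in TGF-β1 cultures and 529.5, 468 and 502 CPM in TGF-β1+Dex cultures, against 383, 422 and 405 CPM in control cultures. Dex and TGF-β1+Dex libraries all lay above control libraries, and Cd2 rose with both agents (0.31 ± 0.06, edgeR adjusted p = 0.00493) and with Dex (0.24 ± 0.06, edgeR adjusted p = 0.0497). The Dex call on Cd2 was lost without any 1 of the 6 libraries, with an adjusted p of up to 0.161, and also with no filter and with only these 2 groups fitted. Cd4, the co-receptor that brings Lck to the complex, passed in none of the 5 comparisons.

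Among the kinases and activating phosphatases, Ptprc encodes CD45, which frees Lck from its inhibitory phosphate. Ptprc had 159, 157 and 156 CPM in Dex cultures, 122, 121 and 108 CPM in TGF-β1 cultures and 109.9, 126 and 116 CPM in TGF-β1+Dex cultures, against 153, 174 and 163 CPM in control cultures. The libraries of both groups with TGF-β1 lay below those of both groups without it. Ptprc fell with TGF-β1 (log2 fold change −0.48 ± 0.08, edgeR adjusted p = 0.00302), with both agents (−0.48 ± 0.08, edgeR adjusted p = 0.00179), and with both relative to Dex alone (−0.42 ± 0.08, edgeR adjusted p = 0.00846), the last of which was lost without TGF-β1+Dex replicate 1 at an adjusted p of 0.0507. Lck, the kinase that starts the cascade, had 367, 373 and 351 CPM in Dex cultures, 433, 398 and 432 CPM in TGF-β1 cultures and 399, 377 and 399.9 CPM in TGF-β1+Dex cultures, against 373, 397 and 412 CPM in control cultures. Zap70, which docks on the phosphorylated chains, had 152, 168 and 142 CPM in Dex cultures, 134, 138 and 145 CPM in TGF-β1 cultures and 132, 130.5 and 151 CPM in TGF-β1+Dex cultures, against 154, 158 and 164 CPM in control cultures. Dex libraries of Lck lay just below the control libraries, and so did Zap70 libraries of both groups with TGF-β1, but neither gene passed the test. The 95% interval of the Dex difference was −0.24 to 0.00 for Lck and −0.21 to 0.13 for Zap70 on the log2 scale. Fyn and Prkcq, the other kinases tested, did not pass in any comparison.

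Lat, at chr7:126363824-126369570 on the minus strand (GRCm38), had 155, 146 and 157 CPM in Dex cultures, 267, 271 and 279 CPM in TGF-β1 cultures and 193, 204 and 213 CPM in TGF-β1+Dex cultures, against 206, 215 and 213 CPM in control cultures. The 4 groups did not touch except the TGF-β1+Dex and control groups, which overlapped. Lat fell with Dex (log2 fold change −0.47 ± 0.06, edgeR adjusted p = 0.000903) and rose with TGF-β1 (0.37 ± 0.06, edgeR adjusted p = 0.00233). With both agents it lay below TGF-β1 alone (−0.42 ± 0.06, edgeR adjusted p = 0.00469) and above Dex alone (0.42 ± 0.06, edgeR adjusted p = 0.00144). Against controls the combination differed by −0.05 ± 0.06, with a 95% interval of −0.17 to 0.07 and an edgeR adjusted p of 0.693. The interaction, which asks whether the Dex effect differs with TGF-β1 present, was 0.05 ± 0.08 for Lat, with an interval of −0.12 to 0.22 and an edgeR adjusted p of 1. The 4 calls on Lat held under every alternative run.

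Lcp2, at chr11:34046920-34092295 on the plus strand, encodes the cytosolic adaptor that joins the Lat complex. It had 73.1, 70.6 and 80.0 CPM in Dex cultures, 82.0, 79.2 and 95.03 CPM in TGF-β1 cultures and 58.2, 74.2 and 76.4 CPM in TGF-β1+Dex cultures, against 122, 115 and 124 CPM in control cultures. Every treated library lay below every control library. Lcp2 fell with Dex (log2 fold change −0.69 ± 0.11, edgeR adjusted p = 0.0056), with TGF-β1 (−0.49 ± 0.11, edgeR adjusted p = 0.0207) and with both (−0.78 ± 0.11, edgeR adjusted p = 0.000643). The TGF-β1 call was lost without control replicate 1 or 3 or TGF-β1 replicate 1 or 2, with an adjusted p of up to 0.0984. Its exons overlap the antisense gene 4930469K13Rik, so reads in the bases they share cannot be told apart. The extent of the overlap was not measured. Trat1, at chr16:48730774-48772021 on the minus strand, had 24.7, 17.5 and 21.8 CPM in Dex cultures, 12.5, 4.05 and 9.68 CPM in TGF-β1 cultures and 8.16, 7.35 and 7.79 CPM in TGF-β1+Dex cultures, against 28.3, 32.4 and 35.8 CPM in control cultures. Both groups with TGF-β1 lay below both groups without it. Trat1 fell with TGF-β1 (log2 fold change −1.92 ± 0.27, edgeR adjusted p = 0.00121, 95% interval −2.50 to −1.34), with both agents (−2.05 ± 0.27, edgeR adjusted p = 0.000474), and with both relative to Dex alone (−1.45 ± 0.28, edgeR adjusted p = 0.0136). The last was lost without Dex replicate 1 or TGF-β1+Dex replicate 2 or 3, with an adjusted p of up to 0.0649. With Dex alone the Trat1 difference was −0.60 ± 0.24, edgeR adjusted p = 0.273.

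Fyb and Skap1 are partners that link the receptor to integrin adhesion. Fyb had 58.3, 60.5 and 51.4 CPM in Dex cultures, 44.6, 43.1 and 46.9 CPM in TGF-β1 cultures and 45.2, 47.6 and 49.5 CPM in TGF-β1+Dex cultures, against 75.6, 71.1 and 55.7 CPM in control cultures. Skap1 had 99.1, 106 and 87.8 CPM in Dex cultures, 80.5, 84.4 and 93.2 CPM in TGF-β1 cultures and 88.4, 84.6 and 82.1 CPM in TGF-β1+Dex cultures, against 104, 113 and 127 CPM in control cultures. For Skap1 the libraries of both groups with TGF-β1 lay below the control libraries, and for Fyb they did too. Both genes fell with TGF-β1 (log2 fold change −0.58 ± 0.12, edgeR adjusted p = 0.0144 for Fyb and −0.42 ± 0.10, edgeR adjusted p = 0.0304 for Skap1) and with both agents (−0.50 ± 0.12, edgeR adjusted p = 0.0206 for Fyb and −0.44 ± 0.10, edgeR adjusted p = 0.0147 for Skap1). The TGF-β1 call on Fyb was lost without control replicate 1 or 2 or TGF-β1 replicate 1 or 2 (adjusted p of up to 0.0665), and that on Skap1 without control replicate 2 or 3 or TGF-β1 replicate 1 or 2 (up to 0.14). With both agents, the call on Fyb was lost without control replicate 1 or 2 or any 1 TGF-β1+Dex library (up to 0.0943), and that on Skap1 without control or TGF-β1+Dex replicate 3 (up to 0.0801). Exons of both overlap antisense genes (Gm2245 and 2010300F17Rik). Sh2d2a, an adaptor that binds Lck, had 117, 116 and 110.2 CPM in Dex cultures, 133, 142 and 137 CPM in TGF-β1 cultures and 121, 117 and 121 CPM in TGF-β1+Dex cultures, against 139, 141 and 142 CPM in control cultures. Dex and TGF-β1+Dex libraries all lay below the control libraries. Sh2d2a fell with Dex (−0.30 ± 0.06, edgeR adjusted p = 0.0217) and with both agents (−0.23 ± 0.06, edgeR adjusted p = 0.0304), and each call was lost without any 1 of its 6 libraries, with an adjusted p of up to 0.188. Both were also lost with no filter and with only the 2 groups fitted, and the second under DESeq2 too. Grap2, Nck1, Sh2d1a and Themis, the other adaptors, did not pass in any comparison. The summed adaptors were 781 to 812 CPM in Dex cultures, 889 to 915 CPM in TGF-β1 cultures and 784 to 814 CPM in TGF-β1+Dex cultures, against 970 to 984 CPM in control cultures.

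Among the effectors, Malt1 encodes the protease of the complex that leads to NF-kappaB, and Plcg1 the phospholipase that makes the second messengers of calcium and Ras signalling. Malt1 had 46.3, 47.6 and 42.9 CPM in Dex cultures, 52.5, 47.4 and 60.2 CPM in TGF-β1 cultures and 71.1, 51.1 and 55.6 CPM in TGF-β1+Dex cultures, against 33.9, 29.2 and 37.2 CPM in control cultures. All treated libraries lay above the control libraries. Malt1 rose with TGF-β1 (log2 fold change 0.67 ± 0.14, edgeR adjusted p = 0.0192) and with both agents (0.82 ± 0.14, edgeR adjusted p = 0.00313). The TGF-β1 call was lost without control replicate 1 or 2 or TGF-β1 replicate 1 or 3, with an adjusted p of up to 0.0927. With Dex alone the difference was 0.45 ± 0.14, edgeR adjusted p = 0.163. Plcg1 had 54.9, 55.8 and 49.4 CPM in Dex cultures, 62.3, 69.1 and 67.5 CPM in TGF-β1 cultures and 72.4, 71.0 and 67.8 CPM in TGF-β1+Dex cultures, against 52.8, 55.1 and 47.7 CPM in control cultures. Both groups with TGF-β1 lay above both groups without it, and Plcg1 rose with TGF-β1 (0.36 ± 0.09, edgeR adjusted p = 0.0458), with both agents (0.44 ± 0.09, edgeR adjusted p = 0.00882) and with both relative to Dex (0.40 ± 0.09, edgeR adjusted p = 0.0322). The first was lost without any 1 of its 6 libraries (adjusted p of up to 0.177), and so was the last (adjusted p of up to 0.137). Both were also lost under DESeq2, with no filter and with only the 2 groups fitted, and the first with upper quartile scaling. Plcg1 exons overlap the antisense gene Gm27206. Vav1, Rasgrp1, Bcl10, Nfatc1 and Nfatc2 did not pass in any comparison.

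Of the 9 negative regulators, Ptpn22 encodes a phosphatase that acts on Lck and Zap70. It had 139.8, 147 and 118 CPM in Dex cultures, 83.5, 100.03 and 115 CPM in TGF-β1 cultures and 107, 141 and 122 CPM in TGF-β1+Dex cultures, against 91.7, 85.3 and 88.9 CPM in control cultures. All Dex and TGF-β1+Dex libraries lay above the control libraries. Ptpn22 rose with Dex (log2 fold change 0.61 ± 0.12, edgeR adjusted p = 0.0279) and with both agents (0.48 ± 0.13, edgeR adjusted p = 0.041). The Dex call was lost without any 1 control library or Dex replicate 1 or 2 (adjusted p of up to 0.116), and the other without any 1 control library or TGF-β1+Dex replicate 2 or 3 (adjusted p of up to 0.151). The phosphatase gene Ptpn6 had 147, 139.6 and 382 CPM in Dex cultures and 179, 179 and 193 CPM in control cultures, where 1 Dex library stood far above the other two; this gene is given because of that spread, after its values were seen. With TGF-β1, all 9 negative regulators had positive differences from controls, of 0.001 to 0.33 on the log2 scale, and none passed. Of all genes tested, 50% had positive differences in that comparison, and the signs were not tested by role. Ptpn6, Csk, Pag1, Ubash3a, Sit1, Dgka, Dgkz and Cblb did not pass in any comparison.

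**Figure D3:**
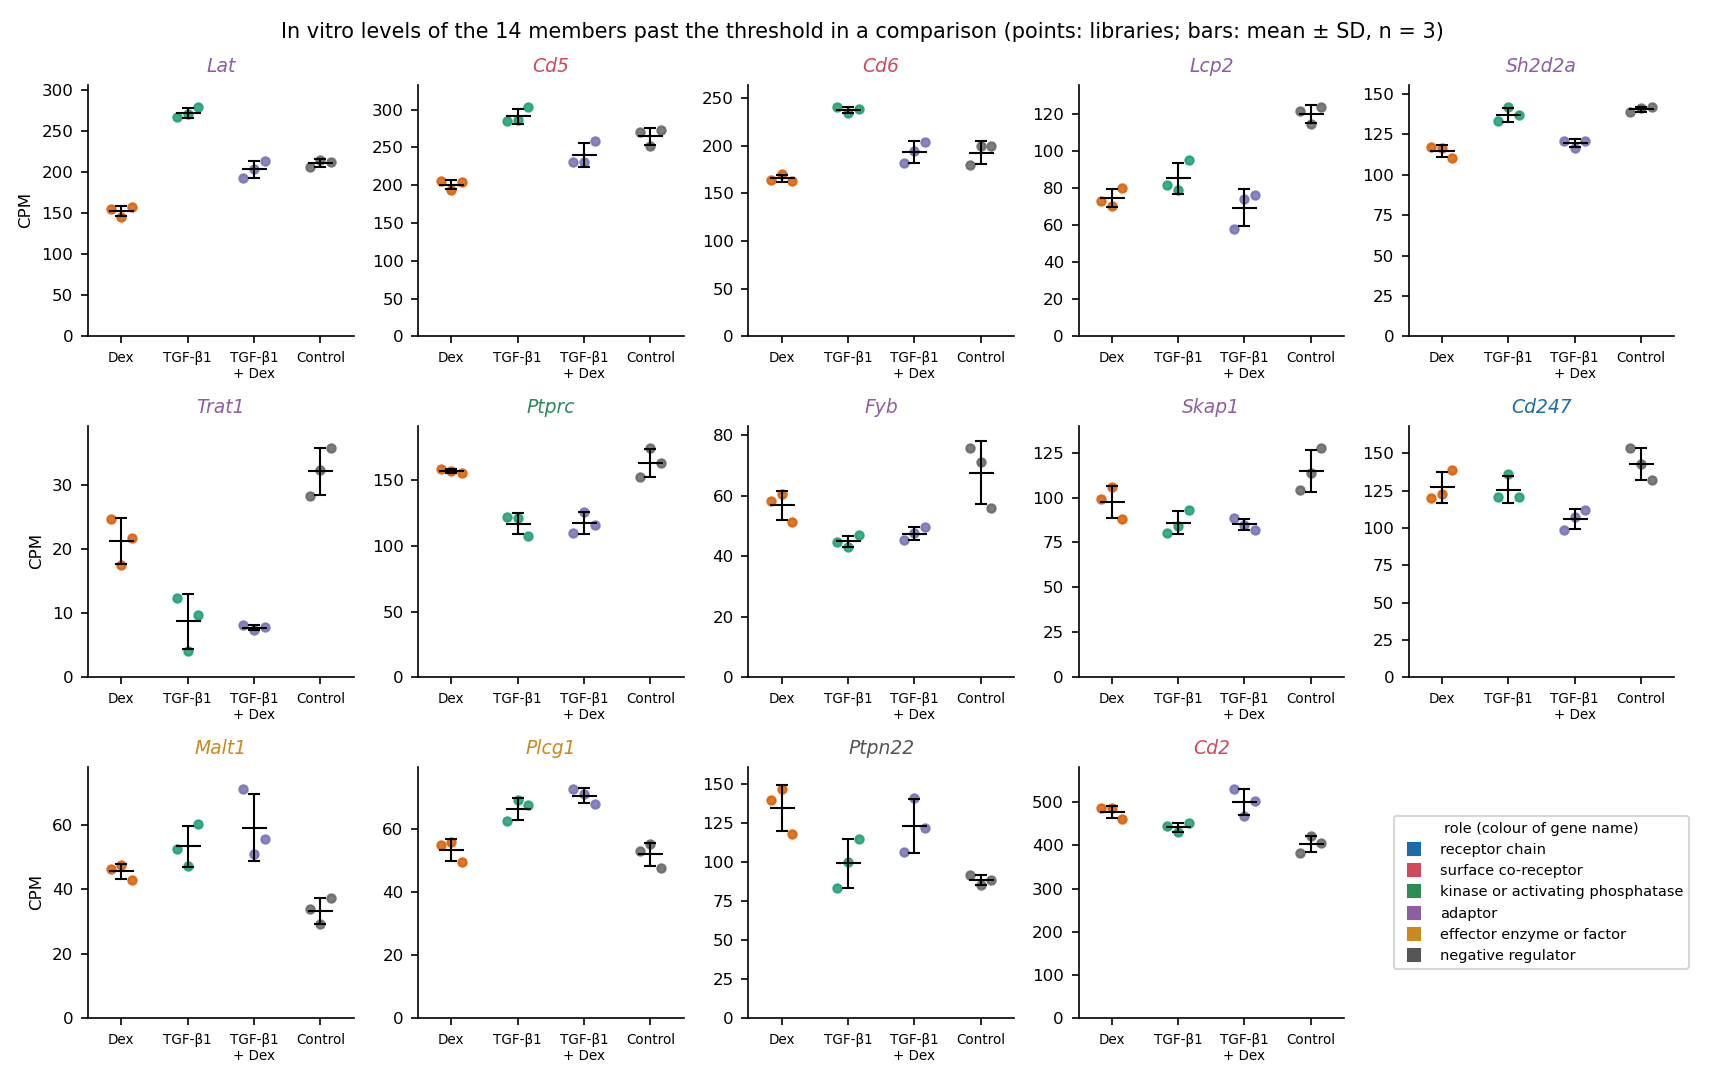
Level in CPM of the 14 members that passed in at least 1 culture comparison, in each library (points) with the group mean and SD (bars), n = 3 per group, each axis starting at 0. Lat separates Dex from control cultures, and Trat1 is at most 12.5 CPM in every library of both groups with TGF-β1.

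Dex was added in the absence and in the presence of TGF-β1 in pairs of groups that share no library. The direction was the same in both pairs for 30 of 39 members, including all 6 that passed with Dex alone. The same count held for TGF-β1 added without and with Dex, at 30 of 39 members, including all 9 that passed with TGF-β1 alone. The share of all genes that kept their direction was not computed, so these counts cannot set the members apart from other genes. The interaction was called for 0 of 39 members and for 0% of all genes in either direction, while 3 members and 552 of all genes had an unadjusted p below 0.05. The smallest adjusted p over all genes was 0.0978, and DESeq2 called 0 members. The members with the smallest p were Lcp2 (log2 0.40 ± 0.15, edgeR adjusted p = 0.86), Sh2d1a (0.31 ± 0.14, edgeR adjusted p = 0.909), Grap2 (−0.41 ± 0.19, edgeR adjusted p = 0.909), Fyb (0.33 ± 0.16, edgeR adjusted p = 0.909) and Ubash3a (−0.38 ± 0.21, edgeR adjusted p = 0.909).

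**Figure D4:**
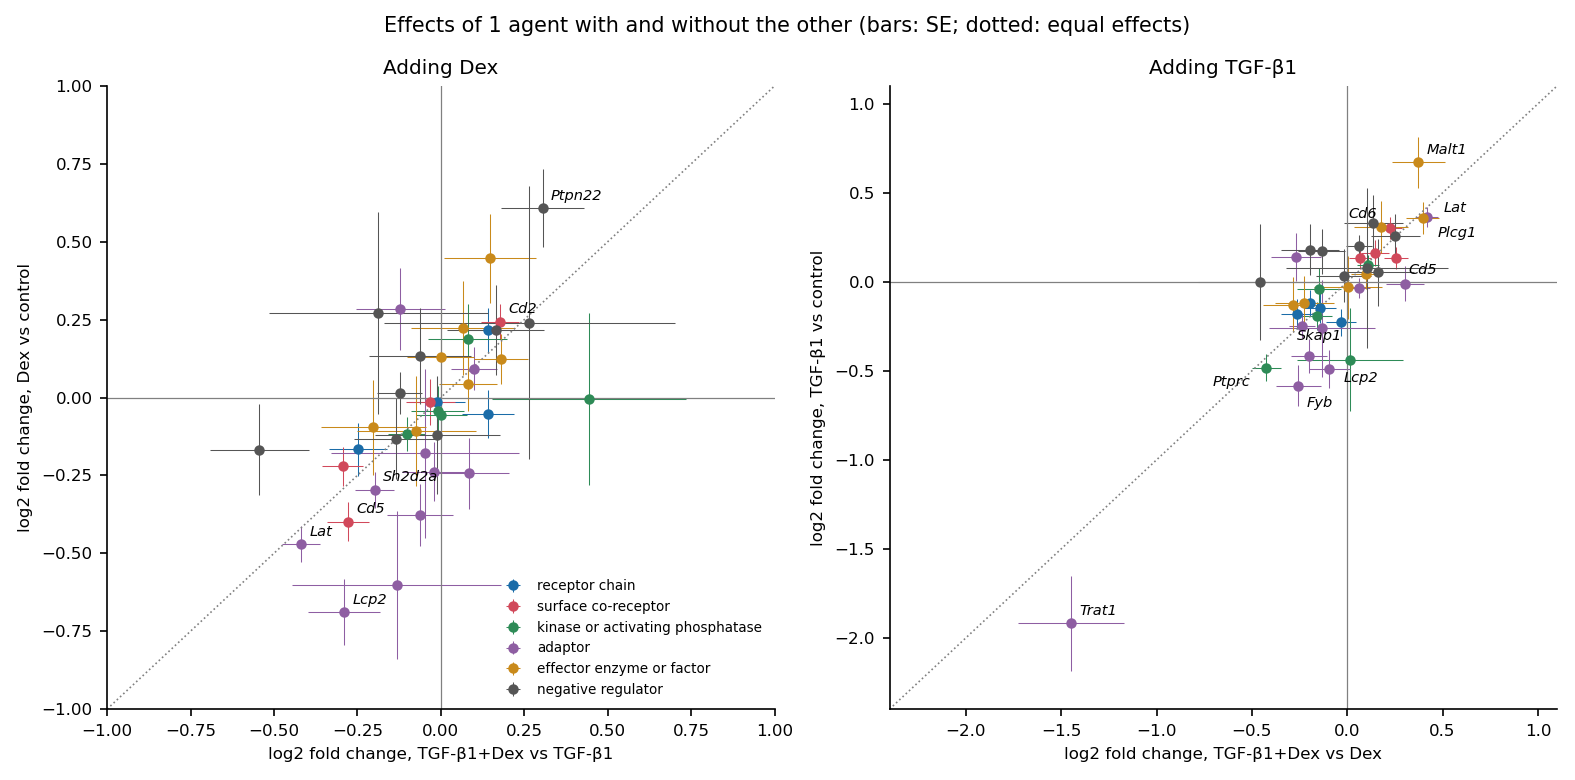
Log2 fold change of the 39 tested members when 1 agent is added with the other (x axis) and without it (y axis); bars are SE and the dotted line marks equal effects. Lat lies near the line in both panels, at −0.42 and −0.47 for Dex and at 0.42 and 0.37 for TGF-β1.

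Other genes of the pathway were counted in 4 lists. None of 15 calcium and NFAT genes and none of 15 Ras and MAP kinase genes tested passed in any of the 5 comparisons (edgeR). Of all genes tested, 8.09% passed in at least 1 of them in either direction. The lists are short, so these counts are a description only. Of 13 PI3 kinase and Rac genes, Pik3r1, the regulatory subunit of PI3 kinase, rose with both agents relative to controls (log2 fold change 0.89 ± 0.20, adjusted p = 0.016) and relative to Dex alone (0.92 ± 0.20, adjusted p = 0.0272). Wipf1, which stabilises an actin regulator, fell with both agents relative to controls (−0.60 ± 0.15, adjusted p = 0.0357). Of 16 other negative regulators, the phosphatase gene Dusp4 rose with TGF-β1 (0.83 ± 0.10, adjusted p = 0.000453), with both agents relative to controls (0.52 ± 0.10, adjusted p = 0.00745) and with both relative to Dex alone (0.94 ± 0.11, adjusted p = 0.000279). Cd52, a small surface glycoprotein, fell with Dex (−0.49 ± 0.06, adjusted p = 0.00065), with both agents relative to controls (−0.54 ± 0.06, adjusted p = 6.54e-05) and with both relative to TGF-β1 alone (−0.33 ± 0.06, adjusted p = 0.0198). The phosphatase gene Ptpn2 fell with both agents relative to Dex alone (−0.47 ± 0.09, adjusted p = 0.0149). No gene of these lists passed in either comparison of CNS cells. Of all genes, 0.138% were higher and 0.0395% lower with Cyp11a1 cKO, and 0% passed with GR cKO. Over these cultures the NK and CD8 marker sum was 21.0 to 27.4 CPM with Dex and 9.82 to 11.2 CPM with TGF-β1. It was 17.3 to 27.3 CPM with both, against 21.0 to 22.0 CPM in controls. Of that sum, Cd8b1 had 6.80 to 13.1 CPM and Gzma 0.680 to 13.3 CPM over all culture libraries. Cd8a had at most 0.487 CPM and Ncr1 was at 0 in each of these libraries. The sum is thus no count of NK or CD8 cells, and its part in these results was not tested.

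In CNS cells the question is whether loss of Cyp11a1 in the transferred cells alters these genes. Between Cyp11a1 cKO and WT, 0 of 40 members passed (edgeR), with 4 at an unadjusted p below 0.05, against 0.138% of all 10125 genes higher and 0.0395% lower. Of all genes, 810 had an unadjusted p below 0.05. DESeq2 called 63 genes and 0 members. The median log2 fold change of members was −0.02, with 17 positive and 23 negative. The 95% intervals had a median half-width of 0.20 on the log2 scale, and all 40 lay within ±1, 31 of them within ±0.5. By role, all 6 kinases or activating phosphatases had negative differences and 6 of 7 effectors did. Of all genes tested, 50.5% had positive differences, and the signs were not tested by role.

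No receptor chain passed. Cd3d averaged 285 ± 12.1 CPM in cKO libraries and 282 ± 12.4 CPM in WT libraries (SD, n = 6 and 4). Cd3e averaged 481 ± 39.7 CPM in cKO and 490.3 ± 44.2 CPM in WT libraries. Cd3g averaged 694 ± 54.3 CPM in cKO and 644 ± 56.2 CPM in WT libraries. Libraries of both genotypes overlapped for each CD3 chain, and the 95% interval of the Cd3g difference was −0.06 to 0.27 on the log2 scale. Cd247 averaged 182 ± 10.4 CPM in cKO and 199.8 ± 13.7 CPM in WT libraries (log2 fold change −0.13 ± 0.07, edgeR adjusted p = 0.717). Lck averaged 604 ± 33.9 CPM in cKO and 607 ± 31.3 CPM in WT libraries, with an interval of −0.14 to 0.13. Zap70 averaged 239 ± 20.0 CPM in cKO and 245 ± 6.44 CPM in WT libraries, with an interval of −0.20 to 0.12. Lat, which moved with Dex and TGF-β1 in culture, averaged 488 ± 42.8 CPM in cKO and 490.4 ± 51.0 CPM in WT libraries, with an interval of −0.19 to 0.17.

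The 5 members with the smallest p are given with their values. Dgka, an enzyme that removes the second messenger diacylglycerol, had 93.5 to 109.7 CPM with a median of 98.3 in cKO libraries, against 139, 105, 119.9 and 133 CPM in WT libraries. Ptpn6 had 141 to 186 CPM with a median of 171 in cKO libraries, against 151, 127, 144 and 123 CPM in WT libraries. Txk had 10.4 to 17.2 CPM with a median of 15.0 in cKO libraries, against 21.8, 18.0, 19.3 and 20.1 CPM in WT libraries. Dgka and Ptpn6 overlapped between genotypes and Txk did not, but none passed (log2 fold change −0.32 ± 0.09, edgeR adjusted p = 0.267 for Dgka, 0.32 ± 0.09, edgeR adjusted p = 0.305 for Ptpn6 and −0.48 ± 0.14, edgeR adjusted p = 0.316 for Txk). Sh2d1a, an adaptor of the SLAM receptors, had 59.1 to 87.7 CPM with a median of 72.5 in cKO libraries, against 118, 79.4, 90.3 and 101 CPM in WT libraries (log2 fold change −0.42 ± 0.13, edgeR adjusted p = 0.366). Grap2, which ties Lcp2 to Lat, had 13.1 to 23.7 CPM with a median of 20.0 in cKO libraries, against 15.4, 16.8, 14.3 and 14.8 CPM in WT libraries (log2 fold change 0.33 ± 0.17, edgeR adjusted p = 0.668). When the fit included the summed myeloid markers, the differences were −0.32 for Dgka, 0.19 for Ptpn6, −0.57 for Txk, −0.58 for Sh2d1a and 0.65 for Grap2, with adjusted p from 0.375 to 0.817. The myeloid sum was 1091 to 1901 CPM in cKO and 997 to 1094 CPM in WT libraries. Within it, Csf1r had 24.7 to 31.8 CPM in cKO and 13.3 to 20.5 CPM in WT libraries. C1qa had 59.8 to 112 against 39.7 to 48.5 CPM, and Fcer1g 49.7 to 78.1 against 23.8 to 39.8 CPM. These did not overlap between genotypes, while Cst3, Lyz2 and Apoe did. Some myeloid RNA thus differed with genotype, and its share in the levels of members was not tested. The NK and CD8 sum was 194 to 481 CPM in cKO and 76.0 to 323 CPM in WT libraries. Gzma had 122 to 386 CPM of that sum in cKO and 33.4 to 236 CPM in WT libraries. Cd8a had at most 1.48 CPM and Ncr1 at most 0.679 CPM in any of these libraries.

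Between GR cKO and WT, 0 of 40 members passed (edgeR), with 1 at an unadjusted p below 0.05, against 0% of all 10597 genes higher and 0% lower, 870 of which had an unadjusted p below 0.05. DESeq2 called 3 genes and 0 members. The median log2 fold change of members was 0.04, with 25 positive and 15 negative, against 49.8% of all genes positive. The 95% intervals had a median half-width of 0.28, and 39 of 40 lay within ±1, 29 of them within ±0.5. Myeloid RNA, given above, was high and uneven in this experiment. Levels below are of whole libraries, and the part of myeloid RNA in the level of each member was not tested.

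Cd3d averaged 172 ± 17.5 CPM in cKO libraries and 179 ± 16.02 CPM in WT libraries (SD, n = 4 and 5). Cd3e averaged 409 ± 20.9 CPM in cKO and 389 ± 37.9 CPM in WT libraries. Cd3g averaged 410.0 ± 22.9 CPM in cKO and 369 ± 49.2 CPM in WT libraries. None of the CD3 chains passed, with edgeR adjusted p of 0.863 for Cd3d, 0.83 for Cd3e and 0.66 for Cd3g. Cd247 averaged 138 ± 10.7 CPM in cKO and 115 ± 19.2 CPM in WT libraries (log2 fold change 0.25 ± 0.14, edgeR adjusted p = 0.591). Without WT replicate 5 its difference was 0.15, with an adjusted p of 0.446. Lck averaged 437 ± 32.8 CPM in cKO and 418 ± 56.9 CPM in WT libraries, with an interval of −0.20 to 0.33 on the log2 scale. Zap70 averaged 147 ± 28.0 CPM in cKO and 164 ± 30.4 CPM in WT libraries, with an interval of −0.52 to 0.22. Lat averaged 335 ± 24.8 CPM in cKO and 317 ± 44.8 CPM in WT libraries, with an interval of −0.19 to 0.35. Without WT replicate 5 the log2 differences were −0.12 for Cd3d, 0.02 for Cd3e and 0.08 for Cd3g. They were −0.01 for Lck, −0.23 for Zap70 and −0.003 for Lat, and edgeR adjusted p over these 6 genes ran from 0.463 to 0.992. With the summed myeloid markers in the fit, the differences were −0.02 for Cd3d, 0.08 for Cd3e and 0.16 for Cd3g. For Lck, Zap70 and Lat they were 0.08, −0.10 and 0.16, and none passed.

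Again the 5 members of smallest p are given. Dgka had 116, 104, 104 and 90.8 CPM in cKO libraries, against 88.8, 76.6, 73.6, 72.2 and 78.9 CPM in WT libraries. Pag1 had 26.3, 20.8, 34.0 and 32.5 CPM in cKO libraries, against 23.2, 20.3, 19.5, 16.6 and 28.7 CPM in WT libraries. The 28.7 CPM was in WT replicate 5, which had the highest myeloid sum. Nfatc1, a calcium-driven transcription factor, had 40.4, 37.8, 35.7 and 37.5 CPM in cKO libraries, against 39.1, 32.4, 27.1, 26.1 and 31.5 CPM in WT libraries. Dgka did not overlap between genotypes and the other two did, and none passed (log2 fold change 0.41 ± 0.11, edgeR adjusted p = 0.58 for Dgka, 0.40 ± 0.19, edgeR adjusted p = 0.58 for Pag1 and 0.27 ± 0.13, edgeR adjusted p = 0.58 for Nfatc1). Sit1, a transmembrane adaptor that restrains the signal, had 64.5, 52.9, 67.8 and 64.2 CPM in cKO libraries, against 62.0, 55.9, 49.9, 39.7 and 48.7 CPM in WT libraries (log2 fold change 0.28 ± 0.14, edgeR adjusted p = 0.58). Trat1 had 31.3, 33.6, 17.0 and 23.7 CPM in cKO libraries, against 25.0, 29.0, 57.3, 51.9 and 30.8 CPM in WT libraries (log2 fold change −0.56 ± 0.29, edgeR adjusted p = 0.58). Without WT replicate 5 the differences were 0.41 for Dgka, 0.51 for Pag1, 0.27 for Nfatc1, 0.26 for Sit1 and −0.63 for Trat1, with adjusted p from 0.271 to 0.398. When the fit included the summed myeloid markers they were 0.37 for Dgka, 0.22 for Pag1, 0.18 for Nfatc1, 0.19 for Sit1 and −0.19 for Trat1, each with an adjusted p of 0.999. Exons of Dgka overlap the antisense gene Pmel, and those of Ptpn6 and Sh2d1a overlap Gm20531 and Tenm1.

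**Figure D5:**
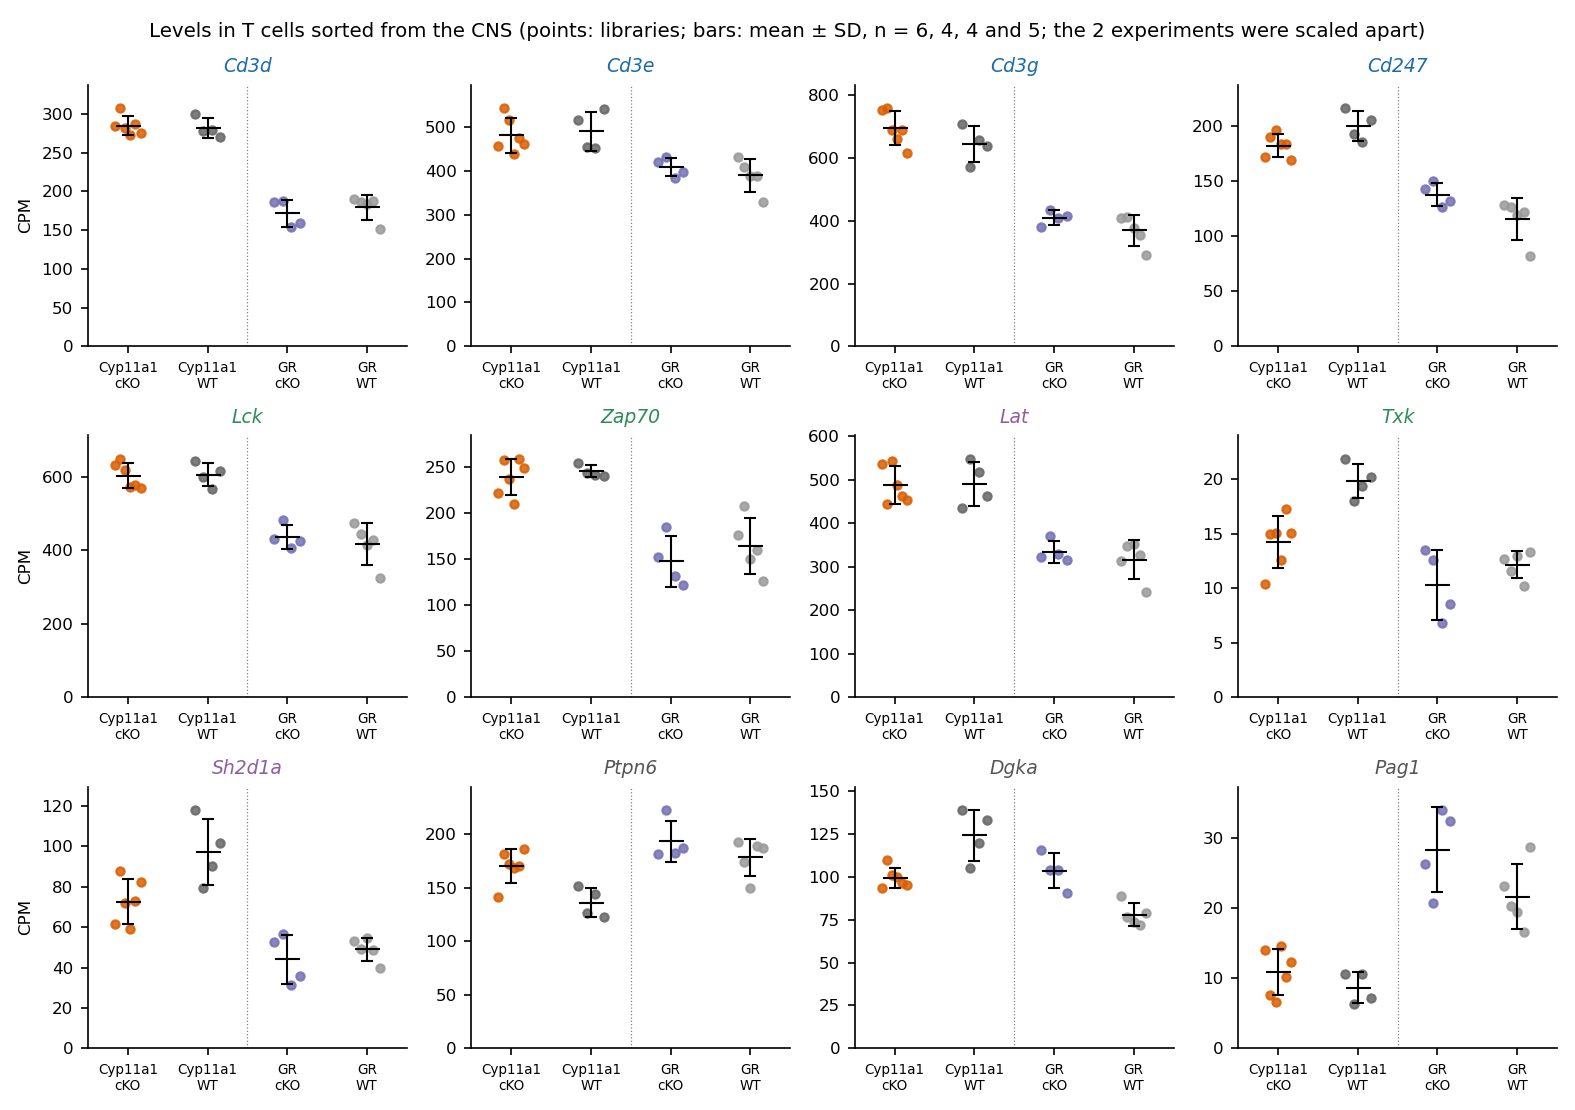
Level in CPM of members in each library of CNS cells (points) with the group mean and SD (bars), cKO left of WT in each experiment, each axis starting at 0. No member passed the test; in the GR experiment the 4 cKO libraries of Dgka lie above the 5 WT libraries.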

How the data were processed

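Libraries were made by SMART-Seq2, in modified form, and Nextera XT tagging, per the labels' protocols, and sequenced in paired ends without strand. The deposited values are raw counts per gene symbol in 3 tables, 1 per experiment, with RSEM 1.3.3 and mm10 in the submitters' processing notes. How estimated counts became whole numbers is not given in the sources used here. All 31 columns were matched to libraries by name, and 0 columns were left without one. Each table was fitted alone in R 4.3.3 with edgeR 4.0.16 (filterByExpr, TMM scaling, robust quasi-likelihood F test, group as the only term), with Benjamini-Hochberg adjustment over all genes tested and a threshold of 0.05. SE and 95% intervals came from the F statistic. CPM used the filtered library size times the TMM factor. Alternatives were DESeq2 1.42.0, limma 3.58.1 with voom and sample weights, other scalings, no filter, 2 groups only, leaving out each library, and, for CNS cells, a myeloid covariate and scaling to receptor constant segments. Predicted Gm genes that rose and fell together took 9.09 to 54.6% of counts and were left out in 1 alternative. Replicate pairs of a group differed beyond sampling noise (chi-square per degree of freedom of 2.79 or more in 49 pairs), so every library was kept as a sample. Of the other genes of the pathway, 4 lists are given, and further ones are not reported here. The members and the pathway lists were chosen with earlier results of these data known. Library values are given for members past the threshold, the 4 receptor chains, Lck, Zap70 and Lat, and, where no member passed, the 5 with the smallest p. Of the members, 12 share exon bases with another gene in GENCODE M21. Intervals and detection limits cover counting error or library spread only.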

Additional observations from a re-analysis of the deposited data

Results flagged for a closer look

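In 160 groups of 4 to 6 libraries, the highest or the lowest library was compared with its nearest neighbour by Dixon's ratio, and 9 stood apart, or 5.62%, where chance gives about 1 in 20. In the Cyp11a1 experiment, cKO replicate 1 had 43.0 CPM of Plcg1, against 53.8 to 59.3 CPM in the other cKO libraries. In cKO replicate 2, Nfatc1 was at 36.0 CPM, against 29.1 to 31.6 CPM in the others. In the GR experiment, WT replicate 5 had 151 CPM of Cd3d, against 183 to 189.9 CPM in the other WT libraries. The same library had 81.7 CPM of Cd247, against 119 to 128 CPM in the others. It also had the highest myeloid marker sum, 27789 CPM, and the part of that RNA in these low values was not tested. In GR WT replicate 2, Malt1 was at 16.4 CPM, against 13.5 to 14.1 CPM in the others. GR cKO replicate 2 had 28.2 CPM of Bcl10, against 24.0 to 24.4 CPM in the other cKO libraries, 222 CPM of Ptpn6, against 182 to 187 CPM, and 125 CPM of Ptpn22, against 106 to 108 CPM. In GR cKO replicate 3, Cblb was at 45.4 CPM, against 38.4 to 38.9 CPM in the others.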

How the results depend on the processing

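The 32 calls on members in culture were recomputed under 14 alternatives each, giving 448 values. Of these, 347 stayed past the threshold in the same direction, 101 were no longer past it, and 0 changed direction. The 14 calls that held throughout were the 4 on Lat, those on Lcp2 and Cd5 with Dex, on Ptprc and Trat1 with TGF-β1, and on Lcp2, Ptprc, Trat1, Malt1, Plcg1 and Cd2 with both agents against controls. Leaving out 1 library gave 3 to 4 members with Dex (6 with all libraries), 3 to 6 with TGF-β1 (9), 7 to 8 with both against controls (11), 2 to 3 with both against Dex (5) and 1 to 1 with both against TGF-β1 (1), and 0 to 0 in the interaction and in both CNS comparisons. Fits of only 2 groups have fewer libraries, and gave 5 members with TGF-β1 and 3 with both agents against Dex; no filter also gave 3 there. Fits of only 2 groups also ended the calls on Cd6, Skap1 and Fyb with TGF-β1 and on Fyb with both agents against controls. For both agents against TGF-β1, DESeq2 called 3 members (Cd5, Cd6 and Lat). With the replicate number as a block, 2 were called there (Cd5 and Lat), and the block ended the calls on Cd2 with Dex (adjusted p = 0.072) and on Ptpn22 with both agents against controls (adjusted p = 0.0502). Deviations of same-numbered libraries from their group means correlated between −0.0135 and 0.0731 in vitro. They correlated between −0.148 and −0.0484 in the Cyp11a1 experiment and between −0.245 and 0.140 in the GR experiment. With so few libraries per group, these values cannot show whether the numbers pair libraries, and the labels do not say. The causes of these shifts were not tested. In CNS cells, 0 of the 40 members passed in any of 19 alternatives for Cyp11a1 or 18 for GR.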
